A study of Mus musculus with 4 samples.

Results

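A set of mature mouse miRNAs described as made without the Drosha and DGCR8 step, mmu-miR-320-3p, mmu-miR-484, mmu-miR-877-5p, mmu-miR-877-3p, mmu-miR-702-3p and mmu-miR-1224-5p, was followed in embryonic stem (ES) cells and in epiblast-like aggregates (ELA). They were taken by name, 6 of the 1907 mature miRNAs listed, and they come from 5 hairpins. E14Tg2A, an ES cell line of the 129/Ola strain, was grown either with 10% fetal calf serum and leukemia inhibitory factor (LIF, 1000 U/mL; "ES serum") or in 2iL, a serum-free N2/B27 medium with the MEK inhibitor PD0325901 (1 µM), the GSK3 inhibitor CHIR99021 (3 µM) and LIF at 1000 U/mL ("ES 2iL"). ELA were floating aggregates kept for 2 days in a minimal N2/B27 medium without LIF, and "ELA serum" and "ELA 2iL" name the medium of the ES cells they came from. Small RNA-seq gave 1 library for each of these 4 groups, made from RNA pooled over 3 sets of experiments, so no value has a replicate error and each interval below covers counting error only.

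Most miRNAs are cut out of a long transcript as a hairpin by the nuclear Drosha/DGCR8 complex, and the hairpin is then cut by Dicer. The miRNAs followed here are described as reaching Dicer by other ways. A mirtron, such as miR-877, miR-702 or miR-1224, is a short intron that the spliceosome cuts out and that folds into a hairpin after debranching. The miR-320 precursor is a short capped transcript that begins at the hairpin itself, and its 3p arm is the one that is loaded on Argonaute. The hairpin of miR-484 has been described as independent of Drosha and DGCR8 and dependent on Dicer. In cells that lack DGCR8 or Drosha, miRNAs of these kinds are therefore expected to be left while canonical miRNAs are lost, but no such cells are among the libraries used here.

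The depth of the ES libraries was 8056984 reads (serum) and 2767016 reads (2iL), and that of the ELA libraries 4309257 (serum) and 587363 (2iL). The smallest level taken as detected, 3 reads, was 0.372, 1.08, 0.696 and 5.11 RPM in the same order (RPM, reads scaled to a miRNA total of 1000000). The miR-290/miR-295 cluster, typical of ES cells, summed to 86119 RPM (serum) and 183326 RPM (2iL) in ES cells and to 55535 and 140756 in ELA. It was thus higher in ELA 2iL than in ES serum. Of its 18 listed members, 12 were above 3 reads in a library. Both arms of miR-290a and of miR-292a, miR-290b-5p and miR-292b-5p were at 0 in all (6). Whether these were absent or not counted was not tested. The miR-302/miR-367 cluster, typical of the epiblast, summed to 5952 RPM (serum) and 78.4 RPM (2iL) in ES cells and to 37319 and 7084 in ELA. It was lowest in ES 2iL and highest in ELA serum. The description field of the labels exchanges these 2 libraries, and the titles and column names were followed. A list of 4 blood miRNAs (miR-451a, miR-144-3p, miR-142a-3p and miR-223-3p) summed to at most 8.51 RPM, one of muscle to at most 73.2, and the liver miRNA miR-122-5p was at 0, whereas a fibroblast list reached 1475 to 4847 RPM and a neural one 262 to 424. The blood list does not hold miR-142a-5p and miR-150-5p, which are also known from blood cells and were looked up after their levels had been seen. miR-142a-5p had 591 RPM (serum) and 1605 RPM (2iL) in ES cells and 549 and 1999 in ELA, while miR-142a-3p, of the same hairpin, was at 0. miR-150-5p had 363 and 581 RPM in ES cells and 65.2 and 100 in ELA. The first was thus higher in 2iL and the second lower in ELA, and their part in the results for medium and stage was not tested.

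The mature sequences of 5 of the 6 miRNAs, and of the second arm of the miR-702 hairpin, are shown because each carries its own targeting seed (bases 2 to 8, in capitals). They were taken from RefSeq (GRCm38.p6), 5′ to 3′. mmu-miR-320-3p is named only.
mmu-miR-484: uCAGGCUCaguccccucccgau
mmu-miR-877-5p: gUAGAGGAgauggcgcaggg
mmu-miR-877-3p: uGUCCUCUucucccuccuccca
mmu-miR-702-3p: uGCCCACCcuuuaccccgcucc
mmu-miR-1224-5p: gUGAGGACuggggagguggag
mmu-miR-702-5p: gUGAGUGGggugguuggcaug

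No miRNA of the table shared a seed with any of the first 5 sequences (0 each), whereas miR-702-5p had the seed of mmu-miR-3102-5p, another miRNA that is described as a mirtron. The sequences were rich in G and C (59.1% to 68.2% in the first 5, against a median of 52.2% over 1679 mature miRNAs). Their arms differed in base composition. Pyrimidines made 19.0% of miR-1224-5p (median of 5p arms 45.5%), and miR-877-3p and miR-702-3p held 90.9% and 81.8% (median of 3p arms 59.1%). The end of an intron, before the splice acceptor, is typically rich in pyrimidines. The hairpins are shown to compare their ends with those of an intron, with the mature arms in capitals.
Mir877: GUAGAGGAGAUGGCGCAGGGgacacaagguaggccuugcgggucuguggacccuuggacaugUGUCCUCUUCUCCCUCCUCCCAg
Mir1224: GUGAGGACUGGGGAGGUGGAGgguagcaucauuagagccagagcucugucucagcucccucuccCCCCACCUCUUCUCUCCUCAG
Mir702: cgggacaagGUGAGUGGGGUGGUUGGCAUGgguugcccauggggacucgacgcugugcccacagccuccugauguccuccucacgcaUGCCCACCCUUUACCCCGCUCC
Mir484: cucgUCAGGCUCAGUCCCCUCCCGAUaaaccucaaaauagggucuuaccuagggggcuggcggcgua

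Mir877 and Mir1224 began with the GU of a splice donor and ended with the AG of an acceptor, as did 2.99% of 1005 RefSeq hairpins (30). In mm9 both hairpins were base for base an intron of 85 bp. Mir877 (chr17:36097675-36097759, minus strand) was an intron of Abcf1, which encodes an ATP-binding cassette protein of translation initiation, and Mir1224 (chr16:20604525-20604609, plus strand) was an intron of Vwa5b2. Of 1577 annotated miRNA genes, 6 (0.380%) were equal to an intron in this way, while 31.8% lay inside one. Mir702 (chr5:137467303-137467411, plus strand) lay over an intron near the start of Plod3, which encodes a lysyl hydroxylase, but did not share its ends. The annotated hairpin began 9 bases before the intron of 102 bp (chr5:137467312-137467413) and stopped 2 bases before its end, and the 5p arm started at the intron's first base.

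**Figure D1:**
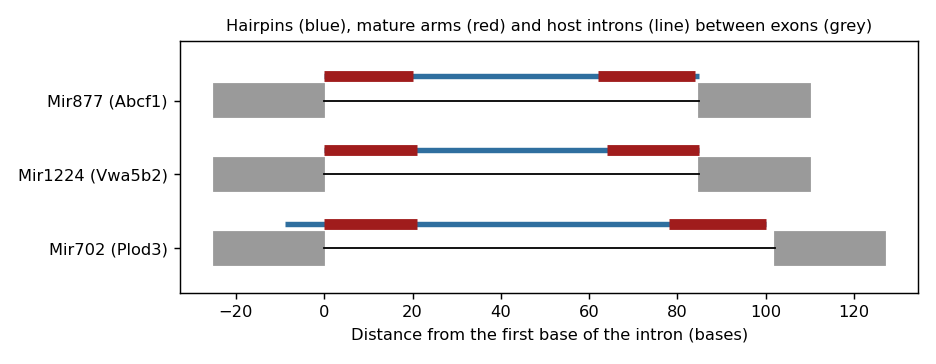
Hairpins (blue) with their mature arms (red) over the host introns (black line) between the flanking exons (grey, drawn to 25 bases), against the distance from the first base of the intron in bases, for the 3 mirtron hairpins. Mir877 and Mir1224 span their introns of 85 bp exactly, and Mir702 begins 9 bases before its intron of 102 bp.

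The other 2 hairpins lay in no gene. Mir484 (chr16:14159719-14159785, plus strand) was 352 bp from the start of 4921513D23Rik on the other strand and 3649 bp upstream of the start of Nde1 on its own strand. Mir320 (chr14:70843317-70843398, plus strand) was 39 bp from the start of Polr3d, a subunit of RNA polymerase III, which is read from the minus strand.

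All but miR-1224-5p were detected in every library, at levels between 9.05 and 1391 RPM. miR-484 was the most abundant, with 1179 RPM (serum) and 1391 RPM (2iL) in ES cells and 491 (serum) and 575 (2iL) in ELA. It ranked between 65 and 103 among all miRNAs of a library. miR-320-3p came next, with 245 RPM (serum) and 193 RPM (2iL) in ES cells and 138 and 266 in ELA. The mirtrons were lower, and miR-1224-5p was close to the limit of detection. In ES cells the 6 together made 0.151% of the reads in serum (Wilson 95% interval 0.149 to 0.154) and 0.187% in 2iL (0.182 to 0.192), in ELA 0.0669% (0.0645 to 0.0694) and 0.0964% (0.0887 to 0.105), and miR-484 alone accounted for 59.7% to 78.0% of these reads. Without it, the order of the libraries was ES 2iL, ELA 2iL, ES serum and ELA serum, with 476, 388, 333 and 178 RPM. The intervals of ELA 2iL and ES serum overlapped, and that of ELA serum lay below all the rest. Of these sums miR-320-3p alone held 193, 266, 245 and 138 RPM in the same order, and the order was read in RPM only.

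**Figure D2:**
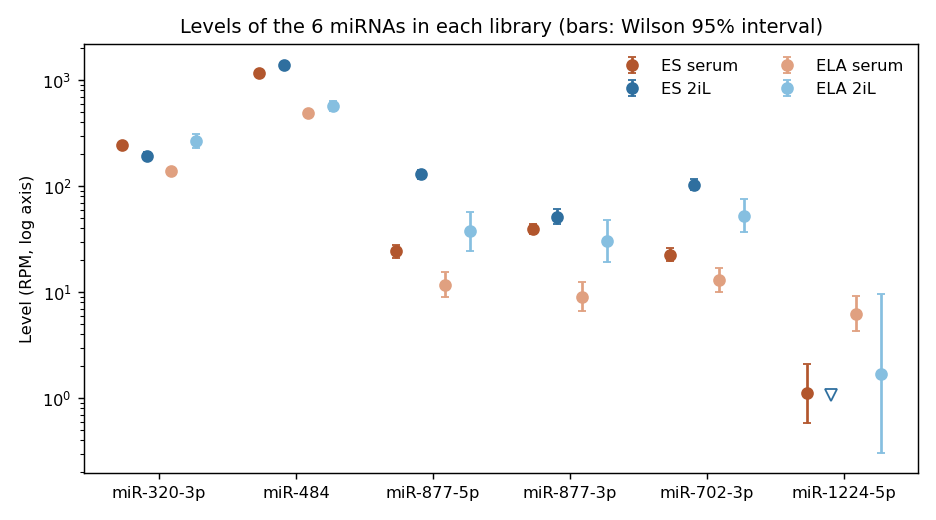
Level of each miRNA in RPM on a log axis, with 1 point per library and the Wilson 95% counting interval. The open triangle is the 3-read limit of 1.08 RPM for miR-1224-5p in ES 2iL, where it had 0 reads. In RPM, ELA serum is lowest for the first 5 miRNAs, and ES 2iL is highest for 4 of them; under TMM and DESeq2 size factors ES serum was the highest for miR-320-3p, miR-484 and miR-877-3p, ELA 2iL the lowest for miR-484 and ES 2iL the lowest for miR-320-3p.

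miR-484 was lower in ELA than in ES cells in both media, by nearly the same amount. The ratio of ELA serum to ES serum was -1.26 on the log2 scale (exact 95% interval -1.33 to -1.20), a 2.40-fold lower level, and that of ELA 2iL to ES 2iL was -1.27 (-1.44 to -1.11), 2.42-fold lower. The media differed little at either stage (log2 ratio of 2iL to serum 0.24 in ES and 0.23 in ELA), and these small values turned negative in both stages when libraries were scaled by TMM or by DESeq2 size factors (-0.25 and -0.16 in ES, -0.12 and -0.13 in ELA), and in ES when totals left out the 5 most abundant miRNAs (-0.04). The sum of the fibroblast list had the same order of libraries as miR-484 (3162 and 4847 RPM in serum and 2iL for ES cells, 1475 and 1985 for ELA). Its sum was nearly all miR-143-3p (3102, 4729, 1451 and 1886 RPM), and its other 4 members did not follow that order. miR-199a-5p had 17.7, 13.0, 5.11 and 23.8 RPM and was highest in ELA 2iL, miR-199a-3p (30.2, 44.1, 15.3 and 37.5 RPM) and miR-145a-5p (11.9, 60.4, 4.18 and 35.8 RPM) were higher in ELA 2iL than in ES serum, and miR-214-3p was at 0 in both serum libraries. The part of this list in the result was not tested, and in libraries of mixed RNA fewer cells with a miRNA and less of it per cell cannot be told apart.

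For miR-320-3p the direction depended on the pair of libraries that was compared. It was lower in ELA than in ES cells in serum (log2 ratio -0.83, exact 95% interval -0.97 to -0.70), and higher in ELA than in ES cells in 2iL (0.46, 0.19 to 0.72). In ES cells it was lower in 2iL than in serum (-0.35, -0.49 to -0.21), and in ELA it was higher (0.95, 0.68 to 1.21). These directions held under all 3 other scalings. In RPM its highest and lowest libraries were both ELA, 1.93-fold apart, although the intervals of ELA 2iL and ES serum overlapped. Under TMM and DESeq2 size factors ES serum was highest and ES 2iL lowest, 1.79-fold and 1.67-fold apart. The range was the narrowest of the 5 miRNAs detected throughout, in RPM and under the 3 other scalings. Its passenger arm was almost absent: miR-320-5p had 2 and 1 reads in ES cells (serum, 2iL) and 1 and 0 in ELA, against 1977, 534, 593 and 156 of the 3p arm.

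The mirtrons miR-877-5p and miR-702-3p had higher levels in 2iL than in serum at both stages. miR-702-3p had 22.6 RPM (serum) and 103 RPM (2iL) in ES cells and 13.0 and 52.8 in ELA (182, 285, 56 and 31 reads). The 2iL library was 4.56-fold higher than the serum one in ES cells (exact 95% interval 3.77 to 5.52) and 4.06-fold higher in ELA (2.53 to 6.41). miR-877-5p had 24.2 RPM (serum) and 129 RPM (2iL) in ES cells and 11.8 and 37.5 in ELA (195, 356, 51 and 22 reads). Here the 2iL library was 5.32-fold higher in ES cells (4.45 to 6.36) and 3.16-fold higher in ELA (1.83 to 5.31). Both miRNAs were also lower in ELA than in ES cells, miR-877-5p by 2.05-fold in serum and 3.43-fold in 2iL, and miR-702-3p by 1.74-fold and 1.95-fold. Under the other scalings the medium ratios in ES cells stayed positive and fell to between 1.92 and 2.14 on the log2 scale for miR-877-5p (2.41 in RPM) and between 1.70 and 1.91 for miR-702-3p (2.19 in RPM).

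**Figure D3:**
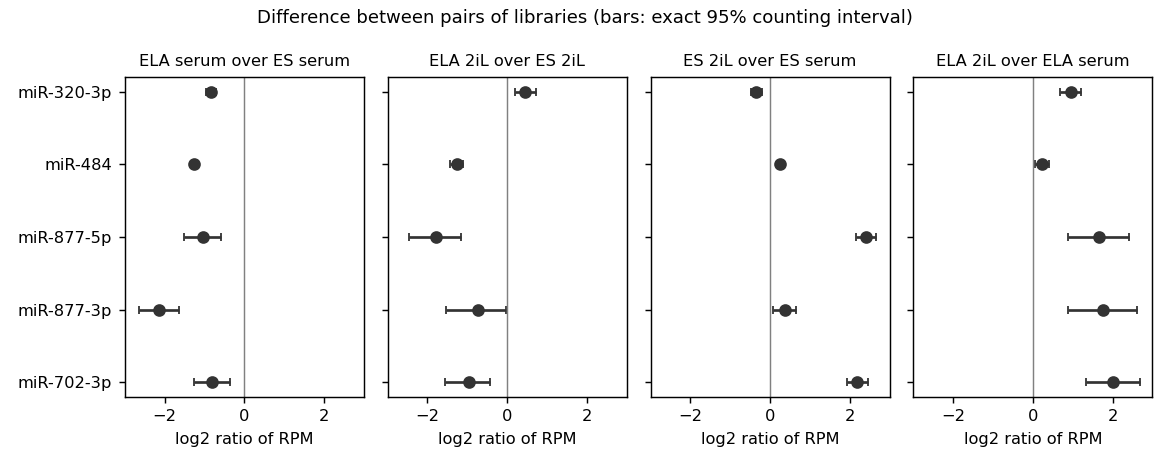
Log2 ratio of RPM between pairs of libraries for the 5 miRNAs detected in all libraries, with the exact 95% counting interval of the reads; the grey line marks no difference. miR-877-5p and miR-702-3p lie to the right in both medium panels, miR-484 lies to the left in both stage panels, and miR-320-3p changes side between panels.

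The second arm of the same intron did not follow the first. miR-877-3p had 39.6 RPM (serum) and 51.3 RPM (2iL) in ES cells and 9.05 and 30.6 in ELA (319, 142, 39 and 18 reads). In ES cells the medium ratio was 1.30-fold (1.06 to 1.58), against 5.32-fold for the 5p arm, and its direction turned under TMM (-0.12 on the log2 scale) and DESeq2 size factors (-0.02). In ELA it was 3.39-fold higher in 2iL (1.82 to 6.06), close to the 5p arm. In serum it was 4.37-fold lower in ELA than in ES cells, and in 2iL 1.67-fold lower.

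The arm that gave more reads differed between the ES libraries. miR-877-5p made 37.9% of the reads of both arms in ES serum (exact 95% interval 33.7 to 42.3) and 71.5% in ES 2iL (67.3 to 75.4), so that the 3p arm was the larger in serum and the 5p arm in 2iL. ELA lay between, with 56.7% in ELA serum (45.8 to 67.1) and 55.0% in ELA 2iL (38.5 to 70.7), and their intervals included equal use. The log2 change of the 5p to 3p ratio was 2.04 between media in ES cells, the 12th largest of 169 hairpins with enough reads, of which 30.2% changed by at least 1. Between stages it was 1.10 in serum (20th of 173, 14.5% past 1) and -1.04 in 2iL (24th of 99, 26.3% past 1), and between media in ELA it was -0.10 (98th of 104, 31.7% past 1). A ratio of arms does not depend on how libraries are scaled.

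For miR-702 it was the 3p arm that dominated, more so in 2iL. In ES cells the 5p arm made 18.4% of its reads in serum (13.5 to 24.1) and 2.40% in 2iL (0.969 to 4.88), and in ELA 23.3% (14.2 to 34.6) and 3.12% (0.0791 to 16.2). The intervals of serum and 2iL did not overlap in ES cells and did overlap in ELA, where the 2iL library held 1 read of the 5p arm. In RPM, miR-702-5p was 5.09 in ES serum and 2.53 in ES 2iL, a ratio of -1.01 on the log2 scale whose interval (-2.41 to 0.16) included 0, while the 3p arm was higher in 2iL.

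**Figure D4:**
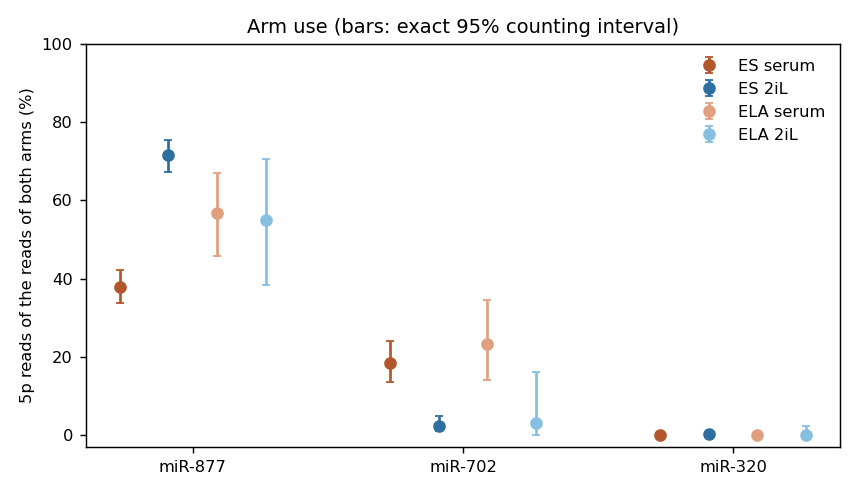
Share of 5p reads among the reads of both arms, in percent, for 3 hairpins in each library, with the exact 95% counting interval. miR-877 goes from 37.9% in ES serum to 71.5% in ES 2iL, miR-702 has fewer 5p reads in the 2iL libraries, and miR-320 has almost none.

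miR-1224-5p, from an intron of the same length as that of miR-877, was barely present. ES cells had 9 reads in serum (1.12 RPM) and 0 in 2iL (3-read limit 1.08 RPM, Wilson upper bound 1.39 RPM). ELA had 27 reads in serum (6.27 RPM) and 1 in 2iL (1.70 RPM, under the 3-read limit of 5.11). The only pair with reads enough for a comparison was that of the serum libraries, in which ELA was 5.61-fold higher than ES (exact 95% interval 2.56 to 13.6), whereas the other 5 miRNAs were lower there. The log2 ratio of ELA 2iL to ELA serum, from 1 and 27 reads, had an interval of -7.24 to 0.72, so a difference was not detectable at this depth. The 5p arm made 9 of 11 reads in ES serum and 27 of 29 in ELA serum.

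Setting the miRNAs against each other inside a library removes the scaling. For every 100 reads of miR-484 ES cells had 1.92 of miR-702-3p in serum (exact 95% interval 1.65 to 2.22) and 7.40 in 2iL (6.54 to 8.35), and ELA had 2.65 (1.99 to 3.45) and 9.17 (6.13 to 13.3). miR-877-5p gave 2.05 and 9.25 reads in ES cells and 2.41 and 6.51 in ELA on the same measure. Both were thus higher against miR-484 in 2iL than in serum at each stage, and the intervals of the media did not overlap. miR-320-3p gave 20.8, 13.9, 28.0 and 46.2 reads per 100 of miR-484, higher in ELA than in ES cells in each medium. Reads of miR-877-5p per 100 of miR-702-3p were 107 (87.1 to 132), 125 (107 to 146), 91.1 (61.1 to 136) and 71.0 (39.2 to 127) in the same order of libraries. These intervals overlapped, and that of ES 2iL lay above 100. The other arm, miR-877-3p, gave 3.36 (2.99 to 3.75) and 3.69 (3.10 to 4.36) reads per 100 of miR-484 in ES cells, with overlapping intervals. In ELA it gave 1.84 (1.31 to 2.53) and 5.33 (3.12 to 8.55), whose intervals did not overlap.

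The contrasts of stage and medium were tested by limma on log2(RPM + 1) with both terms over the 4 libraries, for the 599 miRNAs that reached 10 reads in 2 or more libraries, as 5 of the 6 did. miR-702-3p had a medium contrast of 2.04 ± 0.44 (SE, adjusted p = 0.108 by limma), the 27th highest of 599, and miR-877-5p one of 1.97 ± 0.47 (adjusted p = 0.114), the 31st. miR-877-3p (1.01 ± 0.53, adjusted p = 0.276), miR-320-3p (0.30 ± 0.53, adjusted p = 0.715) and miR-484 (0.23 ± 0.44, adjusted p = 0.726) had smaller ones, and the last 2 turned negative under TMM and edgeR (-0.12 and -0.19) and with DESeq2 (-0.08 and -0.15). For stage, miR-877-3p (-1.37 ± 0.53), miR-877-5p (-1.36 ± 0.47), miR-484 (-1.27 ± 0.44) and miR-702-3p (-0.85 ± 0.44) were lower in ELA with adjusted p between 0.205 and 0.305, and miR-320-3p was at -0.19 ± 0.53 (adjusted p = 0.864), a value that was positive under DESeq2 size factors (0.03). None passed an adjusted p of 0.05, and limma called 0% of all 599 for stage and 0% for medium, although 125 and 176 of them had an unadjusted p under 0.05, among them miR-484 and miR-877-5p for stage and miR-877-5p and miR-702-3p for medium. With the reads recovered from the RPM values, edgeR called 6.51% of the 599 for stage and 10.7% for medium and no member of the list. DESeq2 called 8.35% and 13.4%, and for medium these included miR-702-3p (1.73, adjusted p = 0.0379 by DESeq2) and miR-877-5p (1.68, adjusted p = 0.0495 by DESeq2). Their calls thus depend on the tool, and the list's contrasts share all 4 libraries.

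By size alone, 302 miRNAs whose log2(RPM + 1) averaged 5 or more (31.0 RPM) were compared, which left out miR-877-3p, with a mean of 4.84, and miR-1224-5p, with 1.34. Of the 4 that remained, 2 had a stage contrast of -1 or lower (miR-484 and miR-877-5p) and 0 one of 1 or higher, against 16.2% and 11.6% of the 302. For medium, 2 were at 1 or higher (miR-877-5p and miR-702-3p) and 0 at -1 or lower, against 23.8% and 13.2%. In single pairs, again on log2(RPM + 1), 1 of 4 was lower by 1 in ELA serum than in ES serum (15.6% of the 302; miR-877-5p lay just inside, at -0.97, where its ratio without the pseudocount is -1.03) and 2 of 4 in ELA 2iL than in ES 2iL (23.5%), and 2 of 4 were higher by 1 in 2iL both in ES cells (30.8%) and in ELA (22.2%). The median of the 4 was -1.06 for stage and 1.14 for medium, beside -0.08 and 0.42 over the 302. The median over all 302 for medium was itself moved by the scaling, to 0.00 under TMM and 0.04 under DESeq2 size factors, and relative to 0.42 the medium contrasts were 1.62 for miR-702-3p, 1.55 for miR-877-5p, 0.59 for miR-877-3p, -0.12 for miR-320-3p and -0.19 for miR-484.

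**Figure D5:**
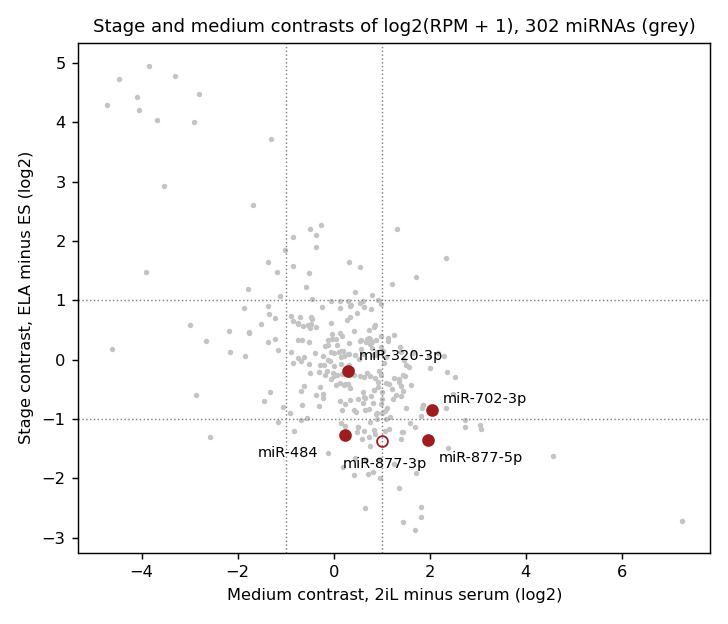
Stage contrast (ELA minus ES, vertical) against medium contrast (2iL minus serum, horizontal), both in log2(RPM + 1), for the 302 miRNAs with a mean of at least 5 (grey) and the listed miRNAs (red; miR-877-3p, mean 4.84, is open); dotted lines mark a difference of 1. miR-702-3p and miR-877-5p lie at a medium contrast of 2.04 and 1.97, and miR-484 at a stage contrast of -1.27.

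A list of 10 further mature miRNAs that are described as mirtrons (miR-1981, miR-1982, miR-3102) or as derived from a small nucleolar RNA (miR-1839) was read in the same way. Of these 10, 8 had reads enough for the test and none passed it with limma. Among the 8, the medium contrast was 1 or higher for 5 (24.5% of all 599) and the stage contrast -1 or lower for 4 (21.7% of all 599). The most uneven was the pair of arms of miR-1981, whose hairpin, like Mir877, was equal to an intron (of Mosc2). miR-1981-3p had 15.5 RPM (serum) and 228 RPM (2iL) in ES cells and 5.57 and 10.2 in ELA, and miR-1981-5p reached 136 RPM in ES 2iL with 9.51 and 15.3 in ELA. In ES cells they were 14.7-fold (exact 95% interval 12.1 to 18.0) and 9.71-fold (7.85 to 12.1) higher in 2iL, while in ELA the intervals of the ratio included 1 for both. miR-1839-5p was higher in 2iL at both stages (33.3 against 123 RPM in ES cells, 35.3 against 78.3 in ELA), as was miR-1839-3p (4.96 against 27.5, and 3.48 against 8.51, the last a difference within counting error). miR-3102-3p went the other way in ES cells, with 29.3 RPM in serum and 18.4 in 2iL, so high levels in 2iL were not shared by the whole list. miR-3102-3p.2-3p was the fifth with a medium contrast of at least 1 (1.38), on 27 reads in all.

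Among the 599 miRNAs, the patterns nearest to each were sought by the Euclidean distance between log2(RPM + 1) values centred over the 4 libraries, as a description over 4 points. miR-702-3p was nearest to miR-351-5p (distance 0.21), miR-331-3p and miR-93-3p, and miR-877-5p to miR-6992-5p (0.29, at most 7.95 RPM), miR-361-3p and let-7f-2-3p. miR-877-5p and miR-702-3p were 0.59 apart, each among the 10 nearest of the other. The arms of miR-877 were 1.41 apart, and the 3p arm ranked 119th from the 5p arm. Its own nearest were miR-466f-5p (0.30), miR-181d-3p and miR-1199-3p. miR-484 was nearest to miR-669e-5p (0.21), miR-466b-5p and miR-143-3p, and miR-320-3p to miR-335-3p (0.11), miR-134-3p and miR-7a-5p. miR-335-3p had 4681 RPM (serum) and 3838 RPM (2iL) in ES cells and 2886 and 5523 in ELA, the same order of libraries as miR-320-3p.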

How the data were processed

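Total RNA was pooled and sequenced as TruSeq small RNA libraries on a miSeq. Per the study's methods and processing notes, the authors used CASAVA 1.8, trimmed adaptors with Trimmomatic, mapped reads to mm9 with Bowtie, counted them with featureCounts on the miRNAs of miRBase 20, and deposited RPM values, which sum to 1000000 over the miRNAs of a library. Versions other than that of CASAVA, and the handling of reads that fit several miRNAs, are not given in the sources used here. RPM therefore gives the part of all miRNA reads, and no amount per cell.

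Groups came from titles and column names, which agree where the description field does not. The members and lists were chosen with earlier results of these data known. All values (100%) were whole multiples of 1 read within a tolerance of 0.02, which gave back the reads. Shares of reads have Wilson intervals, and arm shares and ratios exact Clopper-Pearson intervals. limma 3.58.1 (R 4.3.3) was fitted to log2(RPM + 1), a stage term and a medium term in the model, with Benjamini-Hochberg adjustment and two-sided tests, on 1 residual and 3.79 prior degrees of freedom. With 1 library per group it takes the dependence of stage on medium as error. The additive contrast is the mean of both pairs. edgeR 4.0.16 (quasi-likelihood) and DESeq2 1.42.0 (Wald) on the recovered reads, other scalings, pseudocounts and filters were alternatives. The pipeline was tested on simulated reads. Named miRNAs were the 6 members, the other arms of their hairpins, the list of 10, the cell type marker lists (summed, with values for the members a result touches, and miR-142a-5p and miR-150-5p added after their values were seen), and the 3 nearest patterns of each member tested. The arm comparison over all hairpins was added after the values were seen. Positions came from GENCODE vM1 (mm9), whose genome held the printed hairpins unchanged.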

Additional observations from a re-analysis of the deposited data

Results flagged for a closer look

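mmu-miR-320-3p is listed for a closer look because its differences pointed in opposite directions. Between ELA and ES cells the log2 ratio was -0.83 in serum and 0.46 in 2iL, and between 2iL and serum it was -0.35 in ES cells and 0.95 in ELA. Each interval of the reads excluded 0, but with 1 library per group the difference was not tested.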

How the results depend on the processing

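A replicate block could not be fitted with 1 library per group; the limma model itself compares the stages within each medium and the media within each stage. It called 0 of 599 miRNAs for stage and medium, and also with DESeq2 size factors, a pseudocount of 0.5 RPM, a mean of at least 5, or the other factor left out. Calls for stage and medium were 45 and 74 with TMM, 63 and 99 with totals without the 5 most abundant miRNAs, and 9 and 38 with a pseudocount of 5 RPM. They were 99 and 130 without a filter, 39 and 64 with edgeR, and 50 and 80 with DESeq2. The fit without a filter was over all miRNAs with a read in any library, and that with a mean of at least 5 over the 302. All other fits were over the 599. The cause of the different counts was not tested. The medium contrast of miR-877-5p passed the threshold without the 5 most abundant miRNAs (1.83, adjusted p = 0.0309 by limma), without a filter (1.97, 0.00936) and with DESeq2 (1.68, 0.0495), and so did that of miR-702-3p (1.90, 0.0260; 2.04, 0.00682; 1.73, 0.0379) and, with a pseudocount of 5 RPM, miR-702-3p alone (1.83, 0.0477). Over all settings its adjusted p lay between 0.00682 and 0.307, and that of miR-877-5p between 0.00936 and 0.364.

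The medium contrast of miR-320-3p turned to -0.12 with TMM and edgeR and -0.08 with DESeq2 size factors and the DESeq2 test, its stage contrast to 0.03 and 0.02 with the latter 2, and the medium contrast of miR-484 to -0.19 with TMM and edgeR and -0.15 with both DESeq2 settings. In pairs of libraries, miR-484 turned between media to -0.25, -0.16 and -0.04 in ES cells (TMM, DESeq2 size factors, top 5 left out) and to -0.12 and -0.13 in ELA (the first 2), and miR-877-3p in ES cells to -0.12 and -0.02; these scalings of pairs were added after the data were seen. Of 98 tested values of the members' contrasts under the alternatives, 81 kept both the direction and the side of the threshold, 7 passed the threshold in the same direction and 10 turned. Of 20 values from a single pair of libraries, which have no test, 18 kept the direction. With libraries of 1 medium, the stage contrast was -0.83 in serum and 0.46 in 2iL for miR-320-3p and -2.01 in serum for miR-877-3p. With libraries of 1 stage, the medium contrast was -0.34 in ES and 0.94 in ELA for miR-320-3p, 2.36 in ES for miR-877-5p and 0.37 in ES for miR-877-3p. Counted over all 599 instead of the 302, 2 members and not 1 were lower by 1 in ELA serum than in ES serum (17.2% of the 599), and 3 and not 2 were past 1 for stage (21.7%), for medium (24.5%) and between media in ELA (23.9%). The summed share without the top 5 miRNAs was 0.328% (serum) and 0.335% (2iL) in ES cells and 0.145% and 0.205% in ELA, and without miR-484 0.0333%, 0.0476%, 0.0178% and 0.0388%. ELA 2iL, the shallowest library, held between 18 and 31 reads of miR-877-5p, miR-877-3p and miR-702-3p and 1 read of miR-1224-5p.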
